A study of Mus musculus with 16 samples.

Results

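MED1 occupancy of fat cell chromatin after 1 h of rosiglitazone was compared with that after its solvent, at every peak that the authors listed for PPARγ or for C/EBPα. The comparison rests on 2 of the 16 samples of the series, 1 MED1 library from cells given 1 µM rosiglitazone in 0.1% DMSO and 1 from cells given 0.1% DMSO alone. All 61107 peaks of both lists carry a MED1 value in each treatment, of which 30588 were listed for PPARγ and 30519 for C/EBPα, and none was left out. The cells were 3T3-L1, a mouse fibroblast line, differentiated in culture to adipocytes with dexamethasone, isobutylmethylxanthine and insulin and harvested at day 7. The readout is chromatin immunoprecipitation and sequencing (ChIP-seq), in which each mapped read, or tag, marks 1 DNA fragment recovered with the antibody, background included. The immunoprecipitation used a MED1 antibody (sc-8998). The libraries hold no expression readout, so the adipocyte label could not be checked against marker genes.

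MED1 is a subunit of Mediator, the large complex that links transcription factors bound at enhancers to RNA polymerase II. It contacts the ligand-binding domain of nuclear receptors, and agonist binding favours that contact. PPARγ, the receptor that drives fat cell differentiation, is the target of rosiglitazone, and C/EBPα is its partner at many adipocyte enhancers and also drives differentiation. CBP is a histone acetyltransferase that is also recruited to enhancers as a coactivator. MED1 values were set against these 3 factors, which were measured at the same peaks.

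MED1 was measured at low depth. A PPARγ peak held a median of 2 MED1 tags in DMSO and 1 with rosiglitazone, and 6482 PPARγ peaks (21.2%) held no tag in either library. Deposited units are normalised tags, taken here as tag counts that the authors scaled to each library's total. On that reading the DMSO library was 2.19 times deeper, since 1 tag is worth 3.49 units in DMSO and 7.65 with rosiglitazone. Values are therefore given as sums over many peaks, or for single peaks with at least 20 tags in both libraries pooled. With 1 library per treatment there is no replicate, so no p-value is given between treatments. Intervals in brackets are exact 95% binomial (Clopper-Pearson) intervals of the tags and cover counting error only, since the tags carry no molecular identifiers in these files. An effect of treatment and a difference in the yield of the 2 immunoprecipitations cannot be told apart. A ratio above or below 1 depends on how the authors scaled each library, whereas the order of groups of peaks does not. That order is not free of differences in background or enrichment between the 2 libraries, which were not tested.

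MED1 was higher with rosiglitazone over both lists. Over the PPARγ list the mean MED1 value per peak was 18.3 deposited units in DMSO and 29.7 with rosiglitazone, a ratio of summed tags of 1.63 (1.61 to 1.64). Over the C/EBPα list it was 18.3 and 26.1 units, a ratio of 1.43 (1.42 to 1.44). The ratio was above 1 on 20 of 20 nuclear chromosomes in both lists, and 2 C/EBPα peaks lie on mitochondrial DNA. In the C/EBPα list it ran from 1.26 on chromosome 18 to 1.60 on chromosome X. If values are per 10 M tags, PPARγ peaks took 5.59% of the DMSO library and 9.10% of the rosiglitazone library. The MED1 ratio in the PPARγ list was 1.18 times that of CBP (1.17 to 1.19). This value depends on how the MED1 and CBP libraries were each scaled and on their yields, which the interval does not cover.

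Peaks were split by which factor had a listed peak, a peak counting as shared if any base (1 bp or more) lay inside a peak of the other list. PPARγ-only peaks (n = 19554) had a mean MED1 value of 12.5 units in DMSO and 20.5 with rosiglitazone, shared peaks (n = 11034) 28.5 and 46.1, and C/EBPα-only peaks (n = 19486) 10.2 and 12.5. Shared sites thus carried the most MED1 in both treatments. The MED1 ratio at PPARγ-only peaks was 1.33 times that at C/EBPα-only peaks (1.31 to 1.36, exact conditional interval of the tags). PPARγ-only and shared peaks differed by 1.02 times (1.00 to 1.03), at the limit of counting error. That depends on the window, since shared sites counted in their C/EBPα window had a ratio of 1.54 (1.52 to 1.55) against 1.64 (1.62 to 1.66) at PPARγ-only peaks. For CBP, PPARγ-only peaks stood 1.27 times above C/EBPα-only peaks (1.25 to 1.30). When peaks were called shared only with centres within 50 bp, the MED1 difference between PPARγ-only and C/EBPα-only peaks was 1.21 times.

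The lower ratio at C/EBPα-only peaks lay mostly beyond 1 kb from PPARγ. Within 1 kb of a PPARγ peak, 2854 C/EBPα-only peaks had a mean MED1 value of 20.2 units in DMSO and 30.0 with rosiglitazone, a ratio of 1.49 (1.45 to 1.52). At 1 to 10 kb, 6897 peaks had 10.2 and 11.3 units, a ratio of 1.11 (1.08 to 1.14). The ratio was 1.12 (1.10 to 1.15) at 10 to 100 kb and 1.16 (1.07 to 1.25) at 100 kb or more. The MED1 ratio under 1 kb was 1.32 times that at 1 kb or more (1.28 to 1.36), while the same comparison gave 1.08 for CBP (1.04 to 1.11). At PPARγ-only peaks the ratio differed less with distance to C/EBPα. Their ratio was 1.77 under 1 kb, 1.55 at 1 to 10 kb, 1.65 at 10 to 100 kb and 1.50 at 100 kb or more.

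**Figure D1:**
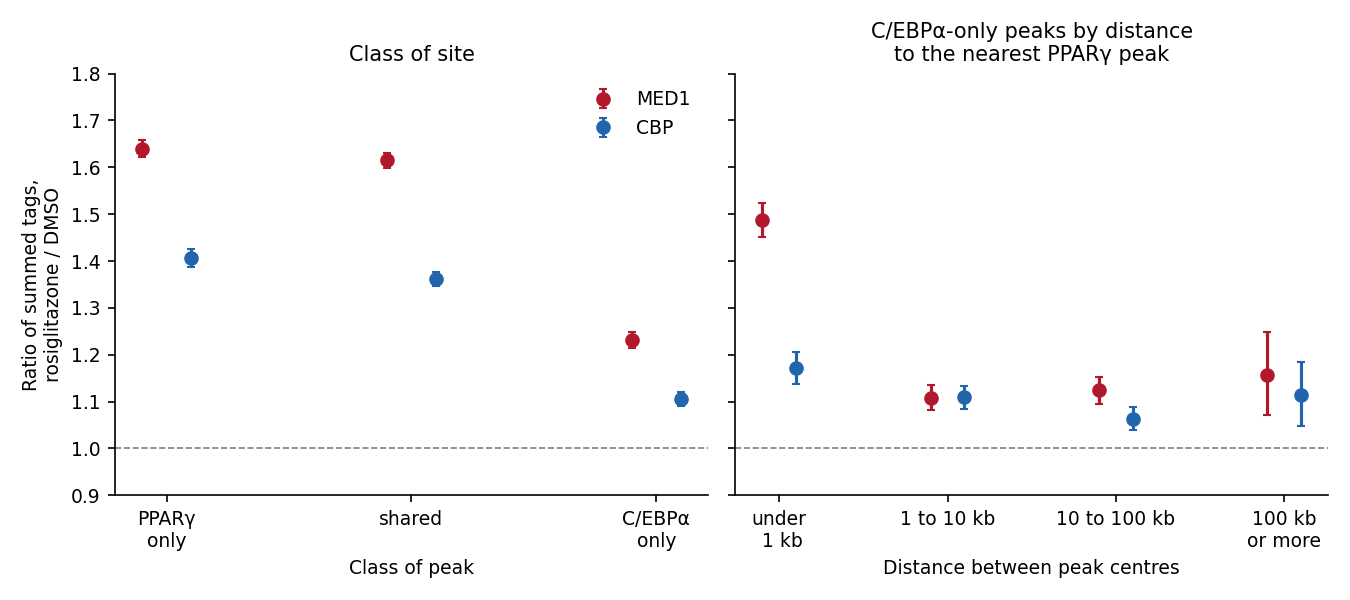
Ratio of summed tags, rosiglitazone over DMSO, for MED1 and CBP by class of peak (left) and at C/EBPα-only peaks by distance between peak centres to the nearest PPARγ peak (right). Points are ratios of 1 library per treatment, bars are exact 95% binomial intervals of the tags, and the dashed line is a ratio of 1. MED1 stands at 1.49 within 1 kb of a PPARγ peak and between 1.11 and 1.16 farther away.

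The classes also differed in how much MED1 they held, so they were compared at like MED1 tags. These groups are made from the same tags as the ratio, so the values are a description. Among peaks with 3 to 9 pooled MED1 tags the ratio was 1.26 (1.23 to 1.29) at PPARγ-only, 1.16 (1.12 to 1.20) at shared and 0.941 (0.917 to 0.965) at C/EBPα-only peaks. Among peaks with 20 to 49 tags it was 1.86 (1.82 to 1.89), 1.66 (1.63 to 1.68) and 1.56 (1.52 to 1.61). Among peaks with at least 50 tags it was 2.08 (2.003 to 2.16), 2.04 (1.998 to 2.08) and 1.81 (1.72 to 1.91). From 3 tags upward, the ratio went up with the amount of MED1 in all 3 classes. Peaks with 0 to 2 tags did not follow that order, with 1.55 at PPARγ-only (n = 9952), 1.70 at shared (n = 2827) and 1.15 at C/EBPα-only peaks (n = 11311), each above its value at 3 to 9 tags. The gap between PPARγ-only and C/EBPα-only peaks narrowed from 1.34 times (1.29 to 1.39) at 3 to 9 tags to 1.15 times (1.07 to 1.22) at 50 or more. Distance to PPARγ was compared in the same way. C/EBPα-only peaks at least 1 kb from a PPARγ peak had a lower ratio than those within 1 kb at 0 to 2 tags (1.12 against 1.40), 3 to 9 tags (0.883 against 1.20), 10 to 19 tags (1.17 against 1.40) and 20 to 49 tags (1.47 against 1.68). At 50 or more tags the order was the other way. The 26 C/EBPα-only peaks with a PPARγ peak at least 1 kb away had a ratio of 1.996 (1.83 to 2.18), and the 34 within 1 kb had 1.71 (1.60 to 1.83).

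Strong PPARγ peaks took a larger share of MED1 with rosiglitazone. In 10 groups of equal size by the authors' peak score, the MED1 ratio lay between 1.50 and 1.64 in the 9 lower groups. In the highest group the mean MED1 value was 50.4 units in DMSO and 92.3 with rosiglitazone, a ratio of 1.83 (1.81 to 1.86). That group was 1.18 times above the other 9 (1.16 to 1.20), and for CBP the same comparison gave 1.16 times (1.14 to 1.18). It held 27.6% of the MED1 tags of the list in DMSO (27.3 to 27.8) and 31.0% with rosiglitazone (30.8 to 31.3). Height of the C/EBPα peak gave a similar picture, with 1.33 to 1.43 in the 9 lower groups and 1.58 (1.56 to 1.61) in the highest.

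MED1 went up with the PPARγ ratio, over a wider range at sites shared with C/EBPα. Peaks with 20 or more PPARγ tags were put in 5 groups of 5276 or 5277 by their PPARγ ratio. At shared peaks the MED1 ratio went from 0.739 (0.707 to 0.771) in the group with the lowest PPARγ ratio through 1.12, 1.49 and 1.85 to 2.02 (1.99 to 2.06) in the highest. At PPARγ-only peaks it went from 0.996 (0.956 to 1.04) through 1.38, 1.64 and 1.81 to 1.97 (1.93 to 2.02). Intervals of the 2 classes did not overlap in the 3 lowest groups and overlapped in the 2 highest. The mean MED1 value at shared peaks of the lowest group was 15.9 units in DMSO and 11.7 with rosiglitazone, so this group had less MED1 with the drug on the authors' scale. C/EBPα-only peaks with at least 20 PPARγ tags showed a step rather than a slope. Their MED1 ratio was 0.932 (0.842 to 1.03) in the lowest group and between 1.56 and 1.67 in the other 4.

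MED1 ran opposite to C/EBPα at the PPARγ peaks that held C/EBPα. PPARγ peaks with at least 20 C/EBPα tags, nearly all of them shared, were put in 5 groups of 1155 or 1156 by their C/EBPα ratio. The MED1 ratio was 1.98 (1.93 to 2.03) in the group with the lowest C/EBPα ratio. It was 1.75, 1.52 and 1.34 in the next 3 groups and 1.32 (1.28 to 1.36) in the highest. The PPARγ ratio moved less over these groups, with 1.79, 1.77, 1.55, 1.58 and 1.72. The opposition was also present at like PPARγ change. In the middle of 5 groups by PPARγ ratio, peaks whose C/EBPα ratio was below the median had a MED1 ratio of 1.78 (1.72 to 1.84), and the others 1.05 (0.995 to 1.11). The PPARγ ratio of the 2 sets was 1.60 and 1.57. In the group with the highest PPARγ ratio the gap was smaller, with 2.10 (2.03 to 2.18) and 1.92 (1.87 to 1.98). MED1 and C/EBPα come from separate libraries, and the peaks are not independent replicates.

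The MED1 ratio was lower where CBP was more abundant, and showed no single order over groups by CBP ratio. Over 5 groups of 683 or 684 peaks by CBP ratio, each peak with at least 20 CBP tags, the MED1 ratio was 1.43, 1.36, 1.40, 1.41 and 1.52. With at least 50 CBP tags it was 1.22 in the lowest and 1.54 in the highest group. It went from 1.79 (1.75 to 1.82) at the 13017 PPARγ peaks with 0 to 2 pooled CBP tags through 1.77, 1.69 and 1.45 to 1.35 (1.32 to 1.38) at the 506 peaks with at least 50. MED1 itself was highest at those 506 peaks, with a mean of 114.9 units in DMSO and 155.0 with rosiglitazone. CBP-rich peaks therefore held the most MED1 and the smallest relative excess of it with the drug. The CBP ratio at these peaks, 1.38, was close to the 1.36 at peaks with 3 to 9 CBP tags.

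**Figure D2:**
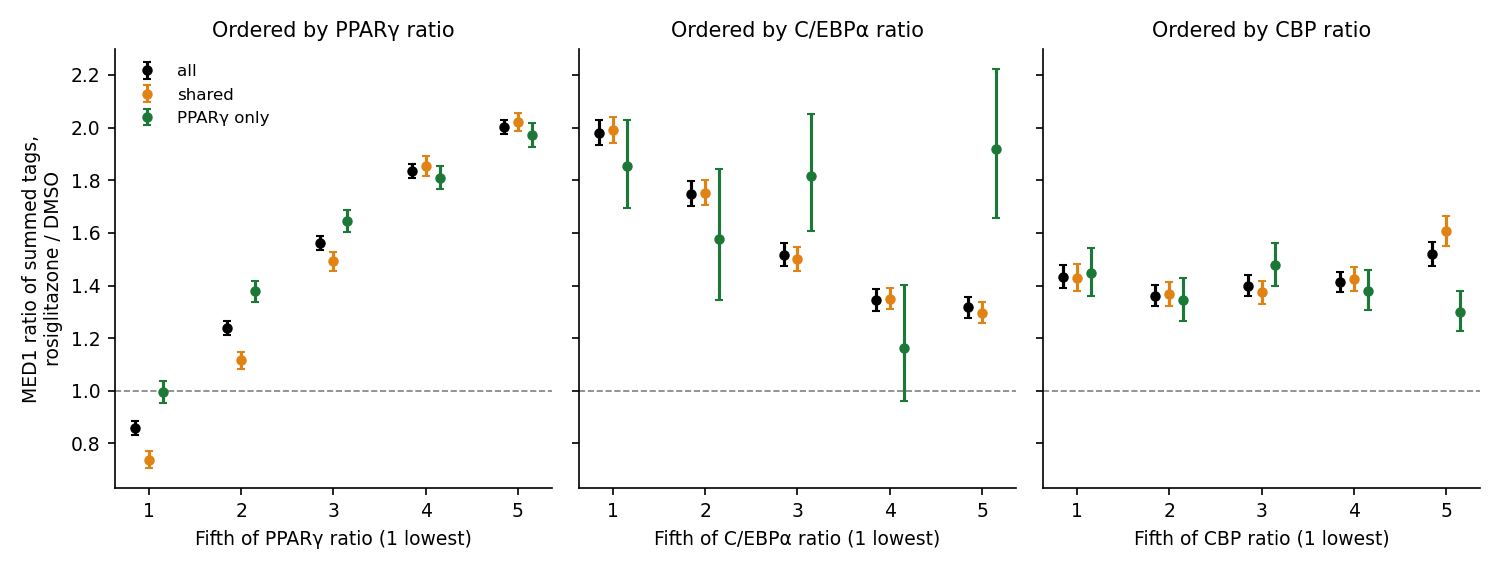
MED1 ratio of summed tags, rosiglitazone over DMSO, at PPARγ peaks placed in 5 groups of equal size by the ratio of PPARγ, C/EBPα or CBP, each among peaks with at least 20 tags of that factor. Black points are all peaks, orange shared and green PPARγ-only, with exact 95% binomial intervals. MED1 goes up from 0.859 to 2.003 with the PPARγ ratio, down from 1.98 to 1.32 with the C/EBPα ratio, and stays between 1.36 and 1.52 over the CBP groups. Green points in the C/EBPα panel rest on 27 to 47 peaks each.

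Crowded PPARγ peaks carried more MED1. Peaks with no other PPARγ peak within 10 kb had a mean MED1 value of 13.8 units in DMSO and 22.1 with rosiglitazone, and peaks with 4 or more had 29.1 and 51.4. The ratios were 1.60 (1.58 to 1.62) and 1.77 (1.70 to 1.83), a difference of 1.10 times (1.06 to 1.15). CBP gave 1.02 times (0.971 to 1.07) for the same sets. Within the highest of the 10 groups by score, ratios were 1.74, 1.78, 1.92 and 2.03 with 0, 1, 2 to 3 and 4 or more neighbours. With neighbours counted within 5 kb, the MED1 ratio at peaks with 4 or more was 1.62 (1.35 to 1.94), against 1.61 at lone peaks.

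Single PPARγ peaks differed in both directions. Of the 30588 PPARγ peaks, 4274 had at least 20 pooled MED1 tags. Among these MED1 was at least 2-fold higher at 1928 (45.1%) and at least 2-fold lower at 348 (8.14%), counted on log2 ratios of the deposited values plus 1. The median log2 ratio was 0.91 (quartiles 0.23 and 1.44). A call rests on the fold alone, and how many calls lie beyond counting error was not counted. Of the 30519 C/EBPα peaks, 3981 had 20 tags, and there 1505 were higher (37.8%) and 386 lower (9.7%). By class, the higher share was 48.1% at PPARγ-only, 43.3% at shared and 33.8% at C/EBPα-only peaks that passed, and the lower share was 6.65%, 9.02% and 7.68%. Raising the minimum to 50 tags left 609 PPARγ peaks, 339 of them higher and 29 lower. The balance depends on the scale. Centred on the median C/EBPα-only peak, a log2 shift of 0.69, the PPARγ list had 669 higher and 596 lower peaks and the C/EBPα list 479 and 677. At shared sites with 20 tags in both windows, 85.4% of 2489 had the same call in the PPARγ and the C/EBPα window, and 1 had opposite calls.

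**Figure D3:**
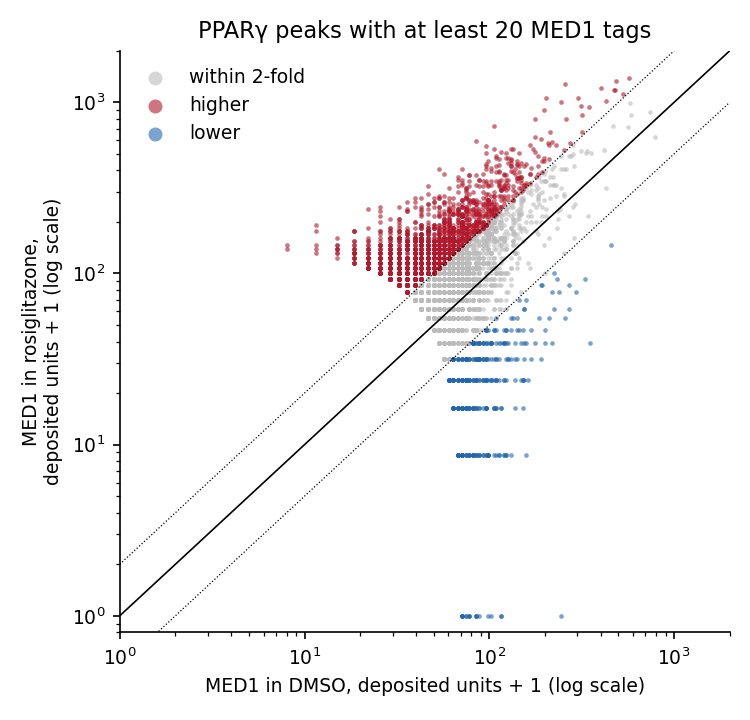
MED1 in DMSO (x axis) and rosiglitazone (y axis) at the 4274 PPARγ peaks with at least 20 pooled MED1 tags, in deposited units plus 1 on log scales. The solid line marks equal values and the dotted lines a 2-fold difference, with 1928 peaks coloured as higher and 348 as lower. The blue row at the bottom holds 19 peaks with no tag in the rosiglitazone library.

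At the peaks with less MED1, the PPARγ ratio was below that of the whole list, the C/EBPα ratio above it and the CBP ratio close to it. Over all PPARγ peaks these ratios were 1.53 for PPARγ, 0.984 for C/EBPα and 1.38 for CBP. At the 348 lower PPARγ peaks the mean MED1 value was 99.3 units in DMSO and 25.5 with rosiglitazone. Their CBP was 63.9 and 89.5 units, a ratio of 1.40 (1.36 to 1.45), against 26.6 and 36.9 units and 1.39 (1.36 to 1.42) at the 1928 peaks with higher MED1. CBP was thus more abundant in both treatments where MED1 was lower, while its ratio was within counting error of that at the higher peaks. PPARγ was 32.1 and 36.3 units at the lower peaks, a ratio of 1.13 (1.11 to 1.16), and 21.6 and 53.6 units at the higher peaks, a ratio of 2.48 (2.45 to 2.51). C/EBPα went the other way, with 1.33 (1.28 to 1.38) at the lower and 0.825 (0.812 to 0.838) at the higher peaks. In the C/EBPα list the lower peaks had ratios of 1.12 for PPARγ, 1.30 for C/EBPα and 1.34 for CBP, against 1.58, 1.01 and 1.25 over that list. A lower peak needs many MED1 tags in DMSO to reach 20 in all, which ties this set to peaks rich in MED1 before the drug.

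**Figure D4:**
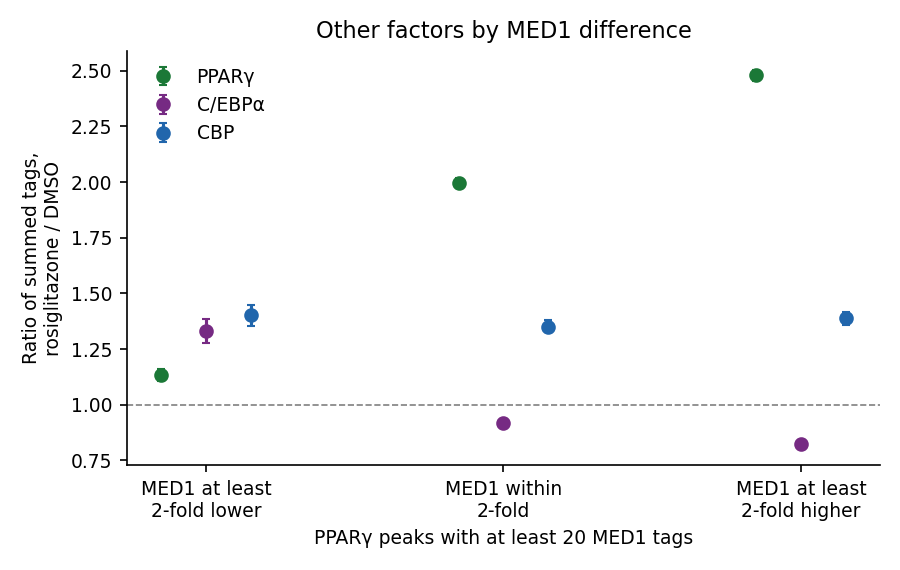
Ratio of summed tags of PPARγ, C/EBPα and CBP at PPARγ peaks with MED1 at least 2-fold lower (n = 348), within 2-fold (n = 1998) and at least 2-fold higher (n = 1928). Bars are exact 95% binomial intervals, smaller than the points in several places. PPARγ goes from 1.13 to 2.48 and C/EBPα from 1.33 to 0.825, while CBP stays between 1.35 and 1.40.

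Calls were compared between neighbouring peaks. Of the lower PPARγ peaks, 89 had another peak with 20 tags as nearest within 10 kb, and that neighbour was within 2-fold at 46 (51.7%), higher at 23 (25.8%) and lower at 20 (22.5%). Over all 1066 peaks with such a neighbour, 8.72% of neighbours were lower and 46.9% higher. Higher peaks had a higher neighbour at 265 of 495 (53.5%) and a lower one at 24 (4.85%). A lower neighbour was thus more frequent beside lower peaks (22.5%) than beside higher peaks (4.85%) or over all peaks (8.72%). This difference was not tested, and counts are per peak, so a pair of peaks nearest to each other was counted from both sides.

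The PPARγ peaks with the most MED1 had, with 1 exception among 10, more of it with rosiglitazone, as most large peaks did. The interval lay above 1 at 8 of the 10. Over all 609 PPARγ peaks with at least 50 MED1 tags, the lower quartile of the log2 MED1 ratio was 0.61. Positions are of build mm9, and no gene was assigned to them. Chromosome 10 held the first of the 10, between 117147642 and 117147828. It had 566 units in DMSO and 1377 with rosiglitazone, a ratio of 2.43 (1.96 to 3.03). Also among the 10 were 2 peaks on chromosome 7, from 35923645 to 35923831 and from 35926552 to 35926738. The former had 472 and 1171 units, a ratio of 2.48 (1.96 to 3.15), and the latter 402 and 1217, a ratio of 3.03 (2.37 to 3.88). Both had more PPARγ with the drug, by 3.77 and 1.84 times. Their CBP ratios of 1.13 (0.587 to 2.06) and 1.08 (0.522 to 2.11) rest on few tags, and a change could not be seen or excluded. The exception lay on chromosome 6 from 115461540 to 115461726. MED1 there was 786 units in DMSO and 627 with rosiglitazone, a ratio of 0.798 (0.612 to 1.03), although PPARγ was 4.46 times higher (3.63 to 5.51) and C/EBPα 1.33 times (1.15 to 1.54). A second peak on chromosome 6, between 115469401 and 115469587, had 580 and 842 units of MED1, a ratio of 1.45 (1.13 to 1.86), with C/EBPα at 0.551 (0.474 to 0.641). C/EBPα was lower beyond counting error at 5 of these 10 peaks and higher at 1, against 101 lower (16.6%) and 83 higher (13.6%) of the 609 PPARγ peaks with at least 50 MED1 tags. The peak with the highest score of the list lay on chromosome 17 from 39984988 to 39985174, 290 bp from the highest-scoring C/EBPα peak. It had high values of all 4 factors and a MED1 ratio of 1.18 (0.934 to 1.49). Input chromatin was not analysed at this site, and whether its tags mark occupancy was not tested.

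The C/EBPα list added 2 peaks whose PPARγ and CBP were lower than at the other peaks with the most MED1 in that list. Over the whole C/EBPα list the mean PPARγ value was 8.60 units in DMSO and 13.6 with rosiglitazone, and that of CBP 13.3 and 16.7. On chromosome 1 from 46910238 to 46910468, MED1 was 737 units in DMSO and 1546 with rosiglitazone, a ratio of 2.10 (1.72 to 2.55). The same window held 3.52 and 7.48 units of PPARγ, 24.3 and 12.7 of C/EBPα, and 15.5 units of CBP in DMSO with no CBP tag in rosiglitazone. On chromosome 6 from 51419868 to 51420098, MED1 was 804 and 1163 units, a ratio of 1.45 (1.17 to 1.78), with 2.64 and 19.1 units of PPARγ, 197 and 129 of C/EBPα, and 30.9 and 30.3 of CBP. There, PPARγ with rosiglitazone and CBP in both treatments were above the list mean, and the PPARγ ratio was 7.25 (2.19 to 37.7). These windows lay 503 and 288 bp from the nearest PPARγ peak centre and overlapped none. Input chromatin was not analysed here, and whether such windows mark MED1 occupancy was not tested.

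Peaks with the highest MED1 ratios resembled the other large peaks in how often PPARγ was higher. Among the 609 PPARγ peaks with at least 50 tags, a site on chromosome 11 between 120734564 and 120734750 led, with 52.4 units in DMSO and 406 with rosiglitazone, a ratio of 7.74 (4.30 to 14.8). PPARγ there was 60.7 and 179 units, a ratio of 2.95 (2.24 to 3.92). A shared peak on chromosome 6 from 84175690 to 84175876 had 83.9 and 589 units of MED1, a ratio of 7.03 (4.39 to 11.6), and in its C/EBPα window a ratio of 7.62 (4.84 to 12.4), the highest of that list. On chromosome 2 from 167521925 to 167522111, MED1 was 105 and 727 units, a ratio of 6.93 (4.56 to 10.8), with PPARγ 3.96 times higher (2.88 to 5.54). PPARγ was higher beyond counting error at 7 of the 8 peaks with the highest MED1 ratios, and at 476 of all 609 (78.2%). CBP was higher at 4 of the 8, and at 138 of the 609 (22.7%). The peak of these 8 where PPARγ was not higher beyond counting error lay on chromosome 16 from 32003194 to 32003380. It had 45.4 and 321 units of MED1 with 11.4 and 12.5 of PPARγ, a PPARγ ratio of 1.09 (0.484 to 2.49).

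At the 8 PPARγ peaks with the lowest MED1 ratios neither PPARγ nor CBP was lower beyond counting error, as at nearly all large peaks. Of the 609 PPARγ peaks with at least 50 tags, PPARγ was lower at 2 (0.328%) and CBP at 6 (0.985%). On chromosome 1 from 145794143 to 145794329, MED1 was 245 units in DMSO and had no tag with rosiglitazone (70 tags against 0, exact upper bound of the ratio 0.118). CBP there was 122 and 109 units, a ratio of 0.898 (0.496 to 1.55). On chromosome 6 from 115188718 to 115188904, MED1 was 349 and 38.3 units, a ratio of 0.109 (0.0348 to 0.264), with 29.9 and 24.1 units of PPARγ and 265 and 291 of CBP. On chromosome 19 from 44497090 to 44497276, MED1 was 255 and 53.6 units, a ratio of 0.210 (0.0816 to 0.455), while CBP was 1.77 times higher (1.09 to 2.84). At the 8 lowest peaks the median PPARγ ratio was 1.02, and PPARγ differed beyond counting error at 0 of them. The same 78.2% of the 609 large peaks is the share with higher PPARγ overall. CBP was higher beyond counting error at 4 of the 8 and lower at 0, the same counts as at the 8 highest peaks. The first 2 sites were also the lowest of the C/EBPα list in its own windows. Next in that list was a C/EBPα-only peak on chromosome 18 from 46794937 to 46795167, with 189 and 23.0 units of MED1, 4.40 and 3.33 of PPARγ, and 68.5 and 78.8 of CBP.

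Tags were also summed over clusters of PPARγ peaks. A cluster was a run of at least 5 PPARγ peaks with gaps of at most 10 kb. There were 477, of which 150 held at least 100 pooled MED1 tags. Their median MED1 ratio was 1.90 (quartiles 1.46 and 2.34). MED1 was at least 2-fold higher in 66 (44%) and lower in 5 (3.33%), and the interval lay above 1 in 113 and below 1 in 8. PPARγ was above 1 in all 150. Across these clusters the log2 ratios of MED1 and PPARγ had a Spearman rho of 0.44 and a Pearson r of 0.52, those of MED1 and CBP 0.04 and 0.06, and those of MED1 and C/EBPα -0.04 and -0.03. These are descriptions over 150 clusters that share the same libraries, and the opposition of MED1 and C/EBPα seen by peak group is not seen in them.

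The cluster with the most MED1 spanned 35903964 to 35929074 of chromosome 7 and held 7 peaks, 374 DMSO tags and 454 rosiglitazone tags, a ratio of 2.66 (2.31 to 3.06). Chromosome 2 had the highest ratio, between 167485409 and 167527933, with 8 peaks and 185 and 410 tags, at 4.85 (4.07 to 5.80). PPARγ was 2.89 times higher there (2.62 to 3.20), and CBP 1.26 times (0.901 to 1.74). A cluster on chromosome 9 from 63948369 to 63964942 followed with 4.54 (3.08 to 6.80), where PPARγ was 5.29 times higher. Lowest was a cluster of chromosome 6 between 94866413 and 94886014, where 120 DMSO tags stood against 21, at 0.383 (0.229 to 0.613). A cluster on chromosome 19 from 44512539 to 44550011 held 241 and 48 tags, a ratio of 0.436 (0.313 to 0.597). The cluster on chromosome 6 from 115177755 to 115202286, which holds the peak named above with a ratio of 0.109, had 158 and 35 tags, a ratio of 0.485 (0.326 to 0.703). PPARγ ratios in the 5 lowest clusters ran from 1.10 to 1.59 and CBP ratios from 0.863 to 1.33.

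**Figure D5:**
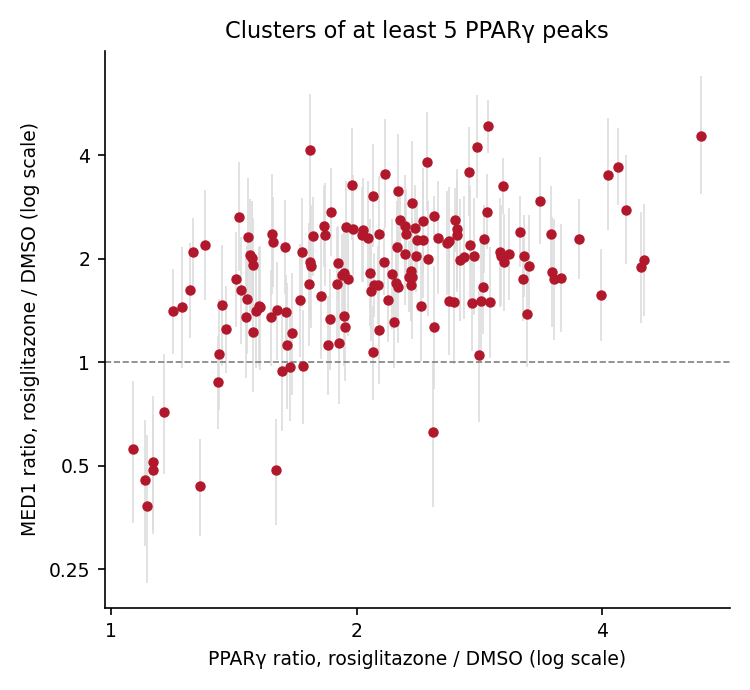
MED1 ratio (y axis) against PPARγ ratio (x axis), rosiglitazone over DMSO on log scales, for the 150 clusters of at least 5 PPARγ peaks with at least 100 pooled MED1 tags. Grey bars are exact 95% binomial intervals of MED1 and the dashed line is a MED1 ratio of 1. Every cluster has a PPARγ ratio above 1, while MED1 runs from 0.383 to 4.85.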

How the data were processed

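Reads were handled with build mm9 and with Bowtie, FastQC, edgeR and HOMER, per the submitters' processing notes. For versions, settings and pooling, nothing is given in the sources used here. The authors deposited, for each peak, a normalised tag signal for 4 factors in 2 treatments, a peak score and a focus ratio. The focus ratio, a fraction per the file headers, was not used in any result. The deposited signal was a whole multiple of a fixed step for 100% of values above 0 (tolerance 0.02 steps), so tags were recovered. Per 10 M tags, the HOMER default that no header states, MED1 libraries held 2.86 M tags in DMSO and 1.31 M with rosiglitazone. BRL, which heads 1 of the MED1 columns, is an older code for rosiglitazone, so that column was matched to the MED1 sample with that treatment. PPARγ columns name no replicate.

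Ratios are rosiglitazone over DMSO of summed tags, scaled as deposited, with exact intervals (SciPy 1.17.1, pandas 2.3.3). Fold counts used a pseudocount of 1 unit, at least 20 pooled tags and a 2-fold threshold. Scripts were tested on simulated data. Named peaks were, per list, the 10 with most MED1 tags and, among those with at least 50, the 8 highest and 8 lowest ratios. Clusters were named by the same kind of rule, 5 for each. Gene lists were prepared but not used, because the reference tables given here are of another build than the files, and no gene names or sequences were assigned to peaks. Members, groups and lists were chosen with earlier results of these data known. The comparisons at like MED1, CBP or C/EBPα tags, of calls with the other factors, of neighbouring peaks and of C/EBPα ratios within PPARγ groups were added after values had been seen.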

Additional observations from a re-analysis of the deposited data

How the results depend on the processing

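Of 82 alternative values for 24 results, 36 stayed within counting error (or within 1.5 times, for counts), 43 moved and 3 crossed to below 1. Without replicates, a treatment effect could not be separated from library differences under any setting, and MED1 depth limits single peaks. No paired analysis was possible because MED1 has 1 sample per treatment, and no replicate could be left out.

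Scaled to the median C/EBPα-only peak with at least 20 tags, the MED1 ratio was 1.01 over PPARγ peaks, 0.885 over C/EBPα peaks, 1.02 at PPARγ-only, 1.00 at shared (0.99971, interval 0.990 to 1.01, which includes 1) and 0.762 at C/EBPα-only peaks. This divides every ratio by 1.62 and sets the median C/EBPα-only peak to 1 by construction, so it shows only that the side of 1 depends on the scale. Scaled to C/EBPα-only peaks at least 1 kb from PPARγ, chosen after seeing the data, these were 1.44 over PPARγ peaks, 1.27 over C/EBPα peaks, 1.46 at PPARγ-only and 1.43 at shared peaks. Without the 1% of peaks with most MED1 tags they were 1.58, 1.37, 1.62 and 1.54, with 1.21 at C/EBPα-only peaks. At or above the median score, the ratio was 1.65 over PPARγ and 1.64 at shared peaks. With centres within 50 bp, C/EBPα-only peaks gave 1.35 and PPARγ-only against C/EBPα-only 1.21. Shared sites counted in the C/EBPα window gave 1.54.

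PPARγ peaks with higher and lower MED1 numbered 3848 and 1138 with at least 10 tags, 339 and 29 with 50, 9125 and 6876 with no minimum, and 669 and 596 on the median scale. C/EBPα peaks numbered 2819 and 1315, 313 and 34, 7439 and 8253, and 479 and 677. These minimums change how many peaks are counted. With neighbours within 5 kb, ratios were 1.63, 1.69 and 1.62 for 1, 2 to 3 and 4 or more neighbours.

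For the lowest and highest of 5 groups, with at least 50 tags of the ordering factor, the MED1 ratio was 0.719 and 2.25 by PPARγ ratio and 1.22 and 1.54 by CBP ratio. Without the 1% of peaks it was 1.93 in the highest by PPARγ, 1.93 and 1.24 by C/EBPα, and 1.29 and 1.32 by CBP. The causes of these moves were not tested.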
